A study of Homo sapiens with 6 samples.

Results

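Expression of 10 selenoprotein genes, out of 57820 genes in the deposited tables, was compared between SEM cells expressing CTCF-dRBR and SEM cells expressing CTCF-WT. *SEPP1* was chosen by its measured values, because it was higher in CTCF-dRBR, and *GPX1*, *GPX4*, *TXNRD1*, *TXNRD2*, *SEPW1*, *SELT*, *SELK*, *SEPN1* and *SEPHS2* were listed with it as genes of the same family. The difference of *SEPP1* between the groups is therefore given as a description without a test, and the other 9 genes were read from a fit across all genes. All 10 were found in the tables by their symbols and were among the 14044 genes tested. Those had at least 1 CPM (the count scaled to library size) in any library before normalization by TMM. Each of the 10 was above that limit in every library. The CPM given for genes below are normalized by TMM. Values of single libraries are given in the order of replicates 1, 2 and 3.

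SEM is an established B-cell lymphoblastic leukemia (B-ALL) line, and total RNA depleted of ribosomal RNA was sequenced from 3 CTCF-WT and 3 CTCF-dRBR libraries. In both groups the endogenous CTCF carried a C-terminal miniAID-mClover3 tag and OsTIR1(F74G) was expressed constitutively, so that the auxin analog 5-Ph-IAA degraded the tagged protein. Doxycycline (1 µg/mL) was added after 6 h of 5-Ph-IAA and kept for 18 h, which made 24 h of 5-Ph-IAA in total, to induce an HA-tagged CTCF in its place. This was wild-type CTCF in one line and, in the other, CTCF without its RNA binding region (RBR), labelled TRE3G-HA-CTCF-dRBR. The question was whether the loss of the RBR alters gene expression. The genotype label of the CTCF-WT libraries names only the tagged endogenous CTCF, so these were assigned by their titles. All titles carry the tag C27, which the sources used here do not explain. Nothing in the labels says that the replicates were separate cultures, so p-values measure only the spread between these libraries, which may be technical.

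Total counts per library ranged from 51732177 to 53166735 in CTCF-WT and from 30034505 to 50457168 in CTCF-dRBR. An observed count of 0 allows up to 3 counts, or 0.0566 to 0.1 CPM, which covers counting error only. CTCF-dRBR replicate 1, the least deep library, stood apart from the others, with Spearman's rho of log2 CPM across genes of 0.913 to 0.968 to the other 5. Libraries also deviated from the common mean along the GC content of the genes, with rho across genes of 0.709, 0.674 and 0.339 in CTCF-WT replicates 1, 2 and 3, and −0.78, −0.417 and 0.504 in CTCF-dRBR replicates 1, 2 and 3. Results are therefore also given without CTCF-dRBR replicate 1, and after removing the GC trend from each library. *CTCF*, to which the tagged endogenous gene and the transgene could both contribute, had 210 to 249 CPM in CTCF-WT and 252 to 273 CPM in CTCF-dRBR, so its counts do not check the switch between the 2 proteins. Of 8 markers of B-cell precursors, 7 reached 1 CPM in some library, and *DNTT* did not. Their summed level was 883 to 1067 CPM in CTCF-WT and 609 to 1023 CPM in CTCF-dRBR.

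Selenoproteins contain selenocysteine, an amino acid that is inserted at an in-frame UGA codon, which elsewhere stops translation. The insertion needs a SECIS element in the transcript, the binding protein SECISBP2, the elongation factor EEFSEC and a dedicated tRNA, on which selenocysteine is made from serine and selenophosphate. Many selenoproteins are enzymes that remove peroxides or reduce thioredoxin, and SEPP1, secreted mainly by the liver, carries selenium between tissues. SEPHS2 makes selenophosphate and is itself a selenoprotein.

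Selenocysteine codons define the family, and their number sets *SEPP1* apart from the others, so the bases around them are shown. These bases were read from GRCh37 at the codons annotated by Gencode, on the coding strand. The selenocysteine codon TGA is in capitals, with up to 12 coding bases on each side.
GPX1: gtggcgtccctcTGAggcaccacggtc
GPX4: gtggcctcccagTGAggcaagaccgaa
TXNRD1: caggctggctgcTGAggt
TXNRD2: gtgacaggctgcTGAggg
SEPW1: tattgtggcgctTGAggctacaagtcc
SELT: atttgtgtttccTGAggttataggcgg
SELK: atggctggtggaTGAggaagg
SEPN1: gaccagtcctgcTGAggttcagggcgg
SEPHS2: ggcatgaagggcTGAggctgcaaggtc
SEPP1: cttcaagccagcTGAtacctgtgcata
The windows of *SEPW1*, *SELT*, *SELK* and *SEPN1* run across exon junctions and are shown spliced. In the 3 windows of *TXNRD1*, *TXNRD2* and *SELK* that are shorter than the rest, the coding sequence ends 1, 1 and 2 codons after selenocysteine. The TGA codons lie in exon 1 of 2 of *GPX1* (chr3:49395565-49395567, minus strand), exon 3 of 7 of *GPX4* (chr19:1105402-1105404, plus strand) and exon 17 of 17 of *TXNRD1* (chr12:104742191-104742193, plus strand). Those of *TXNRD2* and *SEPW1* lie in exon 17 of 18 (chr22:19864634-19864636, minus strand) and exon 2 of 6 (chr19:48283989-48283991, plus strand). Those of *SELT* and *SELK* lie in exon 2 of 6 (chr3:150340179-150340181, plus strand) and exon 4 of 5 (chr3:53919858-53919860, minus strand). That of *SEPN1* shown here lies in exon 10 of 13 (chr1:26139280-26139282, plus strand), and Gencode marks another at codon 127. *SEPHS2* is a gene of 1 exon, with its codon 60 at chr16:30456869-30456871 on the minus strand.

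*SEPP1* is the only one of the 10 with more than 2 annotated selenocysteine codons, with 10 among its 381 codons. The first, at codon 59 in exon 2 of 5, is shown above (chr5:42808279-42808281, minus strand), and the other 9 lie within 237 bases of exon 5 (chr5:42800834-42801070, minus strand), from codon 300 to codon 378. That stretch, again with TGA in capitals, shows how closely they follow each other.
SEPP1 codons 300 to 378: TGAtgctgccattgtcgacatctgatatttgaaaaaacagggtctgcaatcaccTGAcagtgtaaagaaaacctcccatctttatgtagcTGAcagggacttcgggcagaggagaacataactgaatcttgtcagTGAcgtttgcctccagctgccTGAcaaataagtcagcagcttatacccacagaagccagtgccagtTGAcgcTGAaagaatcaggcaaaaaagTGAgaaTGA

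The 10 genes did not move together. *SEPP1* was 2.49-fold higher in CTCF-dRBR and *SEPHS2* was 2.88-fold lower on the scale of the fit, and these 2 had the largest differences in either direction. Each was separated between the groups in every library. *TXNRD2* and *SEPW1* were also lower in every CTCF-dRBR library by CPM, and the groups overlapped in the other 6 genes. Of the 9 genes other than *SEPP1*, 0 were higher without overlap, against 20.0% of all genes tested, and 3 were lower without overlap, against 17.5%. By limma-voom 0 of these 9 passed FDR < 0.05, where 0% of all genes tested passed, and edgeR's quasi-likelihood test called 0. At an unadjusted p under 0.05 by limma-voom, 0 of the 9 were higher, against 12.6% of all genes, and 3 were lower, against 12.8%. The median log2 fold change of the 10 was −0.46, beside −0.0076 for all genes tested.

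**Figure D1:**
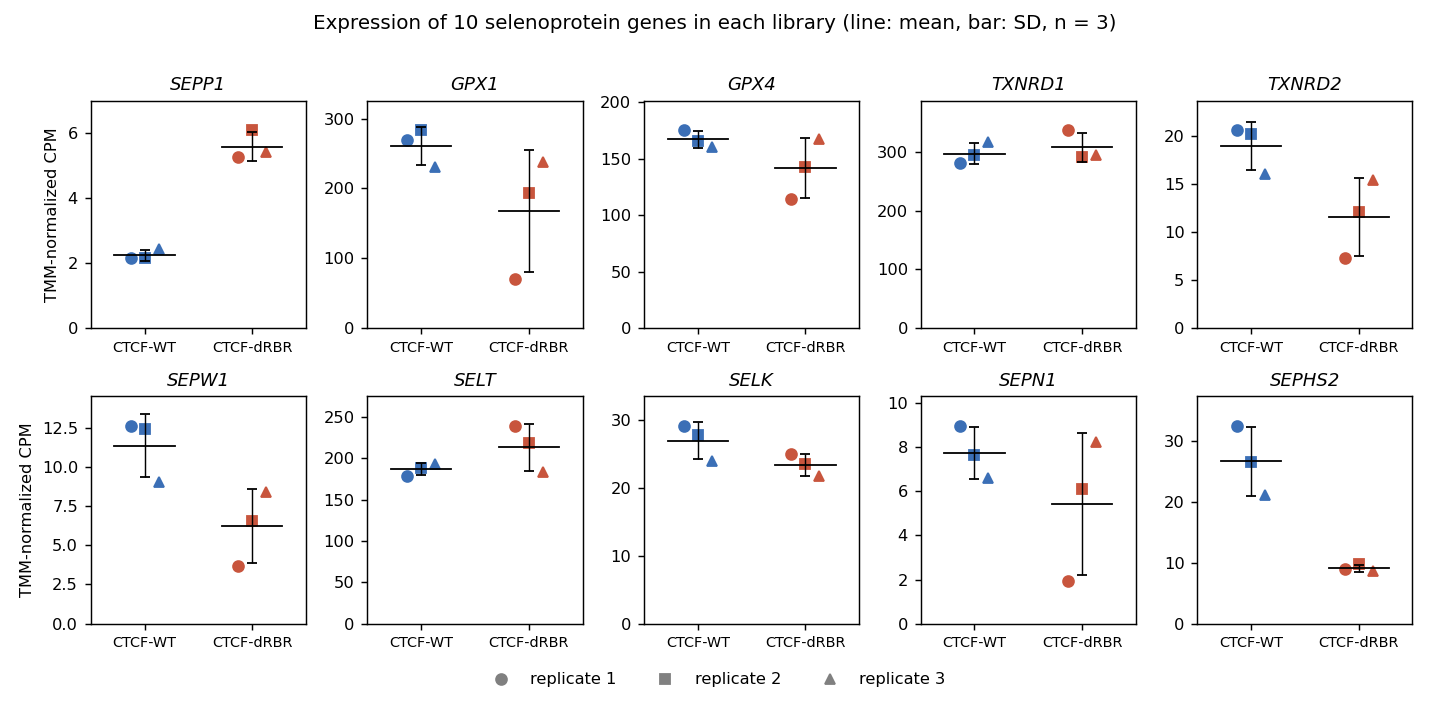
TMM-normalized CPM of the 10 genes (vertical axes from 0, 1 panel per gene) in 3 CTCF-WT (blue) and 3 CTCF-dRBR (red) libraries, with the replicate number as the symbol, the mean as a line and the SD as a bar. *SEPP1* lay at 2.14 to 2.43 CPM in CTCF-WT and 5.25 to 6.07 CPM in CTCF-dRBR, *SEPHS2* at 21.1 to 32.4 and 8.58 to 9.75 CPM, and CTCF-dRBR replicate 1 was the lowest library for *GPX1*, *GPX4*, *TXNRD2*, *SEPW1* and *SEPN1*.

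*SEPP1* (SELENOP, ENSG00000250722.1, chr5:42799982-42887494, minus strand) encodes the secreted selenium carrier. It had 105, 110 and 129 counts in the CTCF-WT libraries, against 157, 313 and 278 counts with CTCF-dRBR. Scaled to depth, this made 2.14, 2.14 and 2.43 CPM and 5.25, 6.07 and 5.4 CPM, in the same order. Each CTCF-dRBR library exceeded the highest CTCF-WT library, CTCF-dRBR replicate 1 included, although its counts came from the smallest total. The means were 2.24 ± 0.169 CPM (SD, n = 3) and 5.57 ± 0.436 CPM, a log2 fold change of 1.31 (standard error, SE, 0.155), the 167th highest of the 14044 genes. The deposited TPM (counts scaled by gene length and to 1 total per library) separated the groups as well, at 0.5, 0.81 and 1.22 in CTCF-WT against 4.2, 3.81 and 2.48 in CTCF-dRBR. Without CTCF-dRBR replicate 1 the log2 fold change was 1.35, and with the GC trend removed it was 0.97. Over 19 alternatives it lay between 0.97 and 1.97.

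Markers of other cell types, among them hepatocytes of the liver, were looked for in these libraries. Of 6 hepatocyte markers, 1 (*TF*, transferrin) reached 1 CPM in a library, and their summed level was 1.02 to 1.57 CPM in CTCF-WT and 1.55 to 2.24 CPM in CTCF-dRBR. Of 8 markers of monocytes or macrophages, *CD68*, *CSF1R* and *LYZ* did so and *C1QA* had 0 counts in all libraries. Their sums overlapped, at 12.9 to 16.1 and 11.6 to 19.5 CPM. Of 6 T cell and 4 erythroid markers, 0 reached 1 CPM, with sums of 0.039 to 0.226 and 0.0189 to 0.0204 CPM in CTCF-WT and 0.116 to 0.903 and 0 to 0.1 CPM in CTCF-dRBR. In *CD3D*, *HBA1* and *ALAS2* every library had 0 counts. The part of other cells in the level of *SEPP1* was not tested, and more cells that express a gene and more RNA per cell cannot be told apart in these libraries.

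*SEPP1* shares its locus with *CCDC152* on the opposite strand, which had at most 6 counts in a library. Of 27 genes in the table that lie within 500000 bases of *SEPP1*, 8 reached 1 CPM and were tested, and 0 passed FDR < 0.05 by limma-voom or by DESeq2, which called 11.5% of all genes. At an unadjusted p under 0.05 by limma-voom 1 of the 8 was higher, close to the 12.6% of all genes. Their log2 fold changes had a median of 0.096. *CCL28*, a chemokine gene 489253 bases away, and *ZNF131*, a zinc finger gene 177784 bases away, were higher in every CTCF-dRBR library, which makes 2 of 8 against 20.0% of all genes tested. *CCL28* had a log2 fold change of 0.46 (SE 0.156, limma-voom adjusted p = 0.163), and *ZNF131* one of 0.40 (SE 0.179, adjusted p = 0.209). *HMGCS1*, which encodes a synthase of the cholesterol pathway, was at 0.27 and the pseudogene *SERBP1P6* at 0.72, with overlap between the groups. *ANXA2R* and the noncoding genes *CTD-2201E18.5*, *CTD-2201E18.3* and *AC025171.1* lay between −0.21 and −0.083, also with overlap.

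The 5 protein-coding genes whose log2 CPM followed *SEPP1* most closely over the 6 libraries, out of 11272 ranked, were *NBPF1*, *SLC15A2*, *GBP4*, *VIM* and *CERS6*, with Pearson's r from 0.9987 to 0.9956. They were chosen by this likeness to a gene that separates the groups, so no test was made. *SLC15A2*, a peptide transporter gene, had the largest difference of the 5, from 3.97 to 4.13 CPM in CTCF-WT to 7.28 to 7.99 CPM in CTCF-dRBR. *VIM*, which encodes the intermediate filament vimentin, was at 660 to 710 CPM and 907 to 949 CPM. *NBPF1* had a log2 fold change of 0.19, so that likeness of pattern did not mean likeness of size. All 5 lie on chromosomes 1, 2, 3 and 10, not on chromosome 5 with *SEPP1*.

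*SEPHS2* (ENSG00000179918.15, chr16:30454952-30457195, minus strand) encodes the selenophosphate synthetase. It had 1589, 1359 and 1118 counts in the CTCF-WT libraries, against 268, 503 and 442 counts with CTCF-dRBR. The CPM were 32.4, 26.5 and 21.1 in CTCF-WT, and 8.96, 9.75 and 8.58 in CTCF-dRBR. The CTCF-dRBR libraries lay close together, CTCF-dRBR replicate 1 among them, and all were below the lowest CTCF-WT library. The means were 26.6 ± 5.65 and 9.1 ± 0.597 CPM (SD, n = 3), a log2 fold change of −1.52 (SE 0.198), the 180th lowest of the 14044 genes. This did not pass by limma-voom (adjusted p = 0.0959, the smallest of any gene but shared with others such as *TXN2*). By an exact permutation test (two-sided) p was 0.1, as low as 3 libraries against 3 can go. The deposited TPM also separated the groups, with 7.41, 7.74 and 9.16 in CTCF-WT and 4.2, 4.61 and 3.27 in CTCF-dRBR.

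*SEPHS2* passed FDR < 0.05 without CTCF-dRBR replicate 1, where its log2 fold change was −1.52 (limma-voom adjusted p = 0.0333) and 3.90% of 13731 genes tested passed. It also passed with the GC trend removed, at −1.36 (limma-voom adjusted p = 0.019), where 9.24% of 13654 genes passed, and with DESeq2, at −1.54 (adjusted p = 6.09e-10), where 11.5% of 14031 genes passed. In each of these 3 settings *SEPHS2* was the 1 call among the 9 genes other than *SEPP1*. Over all 19 alternatives its adjusted p lay between 6.09e-10 and 0.457 and its log2 fold change between −1.68 and −0.86. No other gene is annotated across *SEPHS2* on either strand. *SEPHS1*, its paralog without selenocysteine, was at 89.7 ± 5.26 CPM with CTCF-WT and 80 ± 7.46 CPM with CTCF-dRBR (SD, n = 3), with overlap between the groups (limma-voom adjusted p = 0.324).

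*GPX1* and *GPX4* encode the cytosolic glutathione peroxidase and the enzyme that reduces lipid hydroperoxides in membranes, whose loss leads to ferroptosis. *GPX1* (ENSG00000233276.2, chr3:49394607-49396038, minus strand) had 269, 283 and 231 CPM in the CTCF-WT libraries, against 70.2, 194 and 238 CPM with CTCF-dRBR. CTCF-dRBR replicate 1 was far below the other 5 libraries, and CTCF-dRBR replicate 3 lay within the range of CTCF-WT. Its log2 fold change was −0.79 (SE 0.433, limma-voom adjusted p = 0.258), −0.28 if CTCF-dRBR replicate 1 was left out and 0.063 once the GC trend was removed. *GPX4* (ENSG00000167468.12, chr19:1103981-1106790, plus strand) had 175, 166 and 160 CPM in the CTCF-WT libraries, against 114, 143 and 167 CPM with CTCF-dRBR. The groups overlapped, with CTCF-dRBR replicate 1 again the lowest. Its log2 fold change was −0.25 (SE 0.149, limma-voom adjusted p = 0.288). The sign was not fixed, since it was −0.11 if CTCF-dRBR replicate 1 was left out and 0.75 without the GC trend. The counts of *GPX1* were not whole in any of the 6 libraries, as RSEM gives where reads also map elsewhere, and a same-strand protein-coding gene model overlaps it.

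*TXNRD1* and *TXNRD2* encode the cytosolic and the mitochondrial thioredoxin reductase. *TXNRD1* (ENSG00000198431.11, chr12:104609557-104744085, plus strand) had 281, 295 and 317 CPM in the CTCF-WT libraries, against 337, 292 and 295 CPM with CTCF-dRBR. The ranges overlapped, and its log2 fold change of 0.05 (SE 0.0996, limma-voom adjusted p = 0.742) was the smallest in size of the 10. *TXNRD2* (ENSG00000184470.15, chr22:19863040-19929343, minus strand) had 20.6, 20.2 and 16.1 CPM in the CTCF-WT libraries, against 7.32, 12.1 and 15.4 CPM with CTCF-dRBR. Every CTCF-dRBR library was lower, but CTCF-dRBR replicate 3 came within 1 CPM of CTCF-WT replicate 3. Its log2 fold change was −0.74 (SE 0.273, limma-voom adjusted p = 0.179), −0.47 if CTCF-dRBR replicate 1 was left out and −0.27 without the GC trend. In TPM rescaled to 1 total over protein-coding genes, the ranges of *TXNRD2* overlapped, with means of 21.3 ± 1.79 and 19.6 ± 0.916 (SD, n = 3).

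*SEPW1*, *SELT* and *SELK* encode small selenoproteins, the first 2 with a thioredoxin-like fold and the last in the membrane of the endoplasmic reticulum, where SELT also resides. *SEPW1* (ENSG00000178980.10, chr19:48281934-48287943, plus strand) had 12.6, 12.4 and 9.04 CPM in the CTCF-WT libraries, against 3.71, 6.55 and 8.42 CPM with CTCF-dRBR. All CTCF-dRBR libraries were lower, with a gap of less than 1 CPM between the nearest libraries of the groups. Its log2 fold change was −0.90 (SE 0.313, limma-voom adjusted p = 0.166), and −0.60 both without that first CTCF-dRBR library and without the GC trend. *SELT* (ENSG00000198843.8, chr3:150320662-150348223, plus strand) had 179, 188 and 193 CPM in the CTCF-WT libraries, against 239, 218 and 183 CPM with CTCF-dRBR, a log2 fold change of 0.18 (SE 0.121, limma-voom adjusted p = 0.323). It had the opposite sign, −0.16, with the GC trend removed. *SERP1* overlaps *SELT* on the opposite strand, and whether the counting used the strand is not given in the sources used here. The counts of *SELT* were not whole in any library. *SELK* (ENSG00000113811.6, chr3:53918444-53925912, minus strand) had 29.1, 27.8 and 23.9 CPM in the CTCF-WT libraries, against 25, 23.5 and 21.7 CPM with CTCF-dRBR. These ranges overlapped, with a log2 fold change of −0.21 (SE 0.129, limma-voom adjusted p = 0.302).

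*SEPN1* (ENSG00000162430.12, chr1:26126684-26144712, plus strand) encodes a selenoprotein of the endoplasmic reticulum membrane that is known from inherited muscle disease. It had 8.95, 7.64 and 6.6 CPM in the CTCF-WT libraries, against 1.92, 6.11 and 8.23 CPM with CTCF-dRBR. CTCF-dRBR replicate 3 was above 2 CTCF-WT libraries, and CTCF-dRBR replicate 1 was below all others. The log2 fold change was −0.67 (SE 0.497, limma-voom adjusted p = 0.366), the widest error of the 10, and −0.12 without CTCF-dRBR replicate 1. The counts of *SEPN1* were not whole in 2 libraries, CTCF-dRBR replicate 1 among them (57.51), and a same-strand protein-coding gene model overlaps *SEPN1*.

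**Figure D2:**
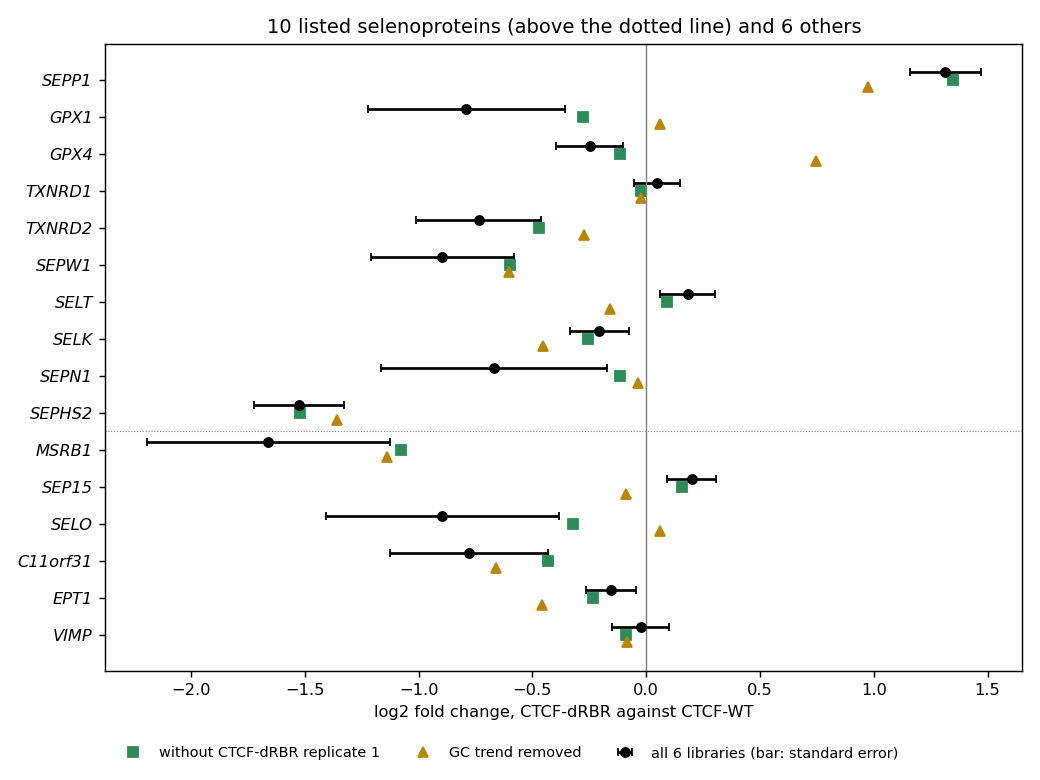
Log2 fold change of CTCF-dRBR against CTCF-WT (horizontal axis) for the 10 listed selenoproteins and 6 others, by limma-voom on all 6 libraries (black, with the standard error), without CTCF-dRBR replicate 1 (green squares) and with the GC trend removed (yellow triangles). *SEPP1* stayed at 0.97 or higher and *SEPHS2* at −1.36 or lower in all 3, whereas *GPX1* ran from −0.79 to 0.063 and *GPX4* from −0.25 to 0.75.

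GC content moved with these differences. Across the 10 genes, the log2 fold change and the GC content of the exonic bases had Pearson's r of −0.595 and Spearman's rho of −0.6, beside −0.581 and −0.682 across 13654 genes tested. These describe genes measured in the same 6 libraries, and no p was computed. With the GC trend removed, r was 0.043 and rho 0.115 across the 10, which follows largely from the removal itself and is no separate result. *SEPP1*, at 36.8% GC, was the most AT-rich of the 10, just below the 5th percentile of the genes tested (37%), and *GPX4*, at 67.3%, lay above the 95th percentile (62.7%). *SEPHS2*, at 51.2%, was nearer to the median of 46.9% than *SEPW1* (53.6%), *TXNRD2* (56.5%), *SEPN1* (59.6%) or *GPX1* (63.7%), and was further down than all of them. The part of GC content in single differences was not tested, beyond the values with the trend removed.

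**Figure D3:**
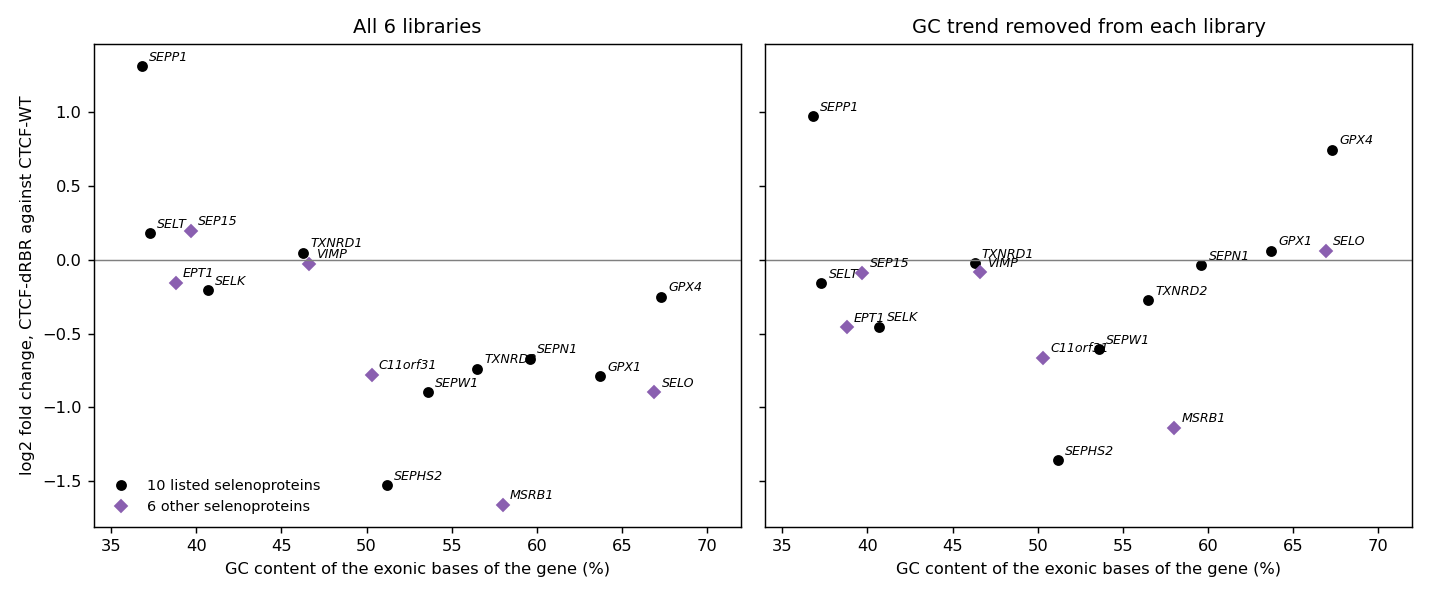
Log2 fold change of CTCF-dRBR against CTCF-WT (vertical axis) against the GC content of the exonic bases in percent (horizontal axis) for the 10 listed selenoproteins (black) and 6 others (purple), on all 6 libraries (left) and with the GC trend removed (right). On the left, all genes above 50% GC lay below 0, and *MSRB1* at −1.66 was lowest. On the right *SEPP1* at 0.97 and *SEPHS2* at −1.36 were at the ends.

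Levels of different genes were compared by TPM rescaled to the same total over protein-coding genes, since these held between 30.2% and 63.2% of the deposited TPM of a library. In CTCF-WT, *GPX1* (393 ± 36.1, SD, n = 3) and *GPX4* (392 ± 24.6) were highest and overlapped. *SELT* (178 ± 31.7) and *TXNRD1* (160 ± 17.1) followed and overlapped too. *SELK* (53.6 ± 5.72) and *SEPW1* (28.1 ± 3.48) each stood apart from their neighbours, *TXNRD2* (21.3 ± 1.79) and *SEPHS2* (21.2 ± 3.53) overlapped, and *SEPN1* (2.9 ± 0.18) and *SEPP1* (2.08 ± 0.371) were lowest. *SEPP1* was thus the scarcest of the 10 transcripts in CTCF-WT, below *SEPN1* in every library. In CTCF-dRBR, *GPX4* (419 ± 45.8), *GPX1* (269 ± 148) and *SELT* (250 ± 45.2) led, each overlapping the next. *TXNRD1* (175 ± 1.83) and *SELK* (46.9 ± 2.27) stood apart. *TXNRD2* (19.6 ± 0.916), *SEPW1* (15.8 ± 7.76), *SEPHS2* (7.54 ± 0.911) and *SEPP1* (6.45 ± 0.669) each overlapped the next, and *SEPN1* (2.15 ± 1.33) was last. In that group *SEPP1* was in the range of *SEPHS2*, from which it stood apart in CTCF-WT.

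Windows of 250 bases before the start of the canonical transcript of each gene, as Gencode marks it, were searched on both strands for CCCTC, the core of the CTCF motif, and for TATAAA, the TATA box. Among 19874 windows of protein-coding genes, 73.7% held CCCTC and 9.26% held TATAAA. Of the 10 genes, *GPX1*, *GPX4*, *SELT*, *SEPW1*, *SEPN1* and *SEPP1* held CCCTC on either strand. Only *SEPP1* and *SEPHS2* of the 10 held TATAAA. These 2 windows are shown because the genes differed most between the groups. Capitals mark TATAAA, at −31 in *SEPP1* and −32 in *SEPHS2* from the start. They also mark GAGGG at −55 in *SEPP1*, which is CCCTC as it reads on the other strand.
SEPP1: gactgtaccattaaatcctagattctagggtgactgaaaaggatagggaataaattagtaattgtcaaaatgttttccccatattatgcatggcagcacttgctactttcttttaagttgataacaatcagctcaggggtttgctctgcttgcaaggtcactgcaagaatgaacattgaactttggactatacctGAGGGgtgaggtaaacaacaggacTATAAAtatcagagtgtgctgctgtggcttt
SEPHS2: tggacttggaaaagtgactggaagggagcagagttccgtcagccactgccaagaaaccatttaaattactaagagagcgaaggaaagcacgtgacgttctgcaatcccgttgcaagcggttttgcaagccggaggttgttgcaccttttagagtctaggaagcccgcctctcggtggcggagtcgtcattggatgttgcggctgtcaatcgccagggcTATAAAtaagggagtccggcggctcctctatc
The window of *SEPP1* is chr5:42811995-42812244 and that of *SEPHS2* is chr16:30457196-30457445, both on the minus strand of GRCh37. The former lies inside the listed bounds of *SEPP1*, which has transcripts that start further upstream. The *SEPP1* window had 39.6% GC and 1 match to CCCTC, and the *SEPHS2* window had 52.8% GC and 0. The motifs do not overlap each other. A match is a string of letters in this window and was not tested as a binding site.

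Of 15 other selenoproteins, 6 reached 1 CPM and were tested. By limma-voom, 0 passed FDR < 0.05, and 1 of the 6 was lower at an unadjusted p under 0.05, against 12.8% of all genes. DESeq2 called 1, against 11.5% of all genes, and 1 was called with the GC trend removed, against 9.24%. These single calls are close to the shares of all genes, and edgeR's quasi-likelihood test called 0. *MSRB1*, which repairs oxidized methionine, had 7.87, 8.02 and 5.34 CPM in the CTCF-WT libraries, against 0.736, 2.95 and 3.69 CPM with CTCF-dRBR. All CTCF-dRBR libraries were lower, as in 17.5% of all genes tested, and CTCF-dRBR replicate 1 was the lowest. Its log2 fold change was −1.66 (SE 0.533, limma-voom adjusted p = 0.157), and −1.08 without CTCF-dRBR replicate 1. By DESeq2 *MSRB1* was at −1.52 and passed (adjusted p = 0.048). On simulated counts, however, which held no GC trend, DESeq2 made 81 false calls, against 10 by limma-voom. The groups overlapped in the other 5, and the median log2 fold change of the 6 was −0.47. *SELO* had a log2 fold change of −0.90 and *C11orf31* (SELENOH) one of −0.78. *EPT1* (SELENOI), a phospholipid synthesis enzyme, was at −0.15 and passed with the GC trend removed, at −0.46 (limma-voom adjusted p = 0.0367). *VIMP* (SELENOS) was at −0.025 and *SEP15* at 0.20. The deiodinases *DIO1*, *DIO2* and *DIO3*, the peroxidases *GPX2*, *GPX3* and *GPX6*, and *SELM*, *SELV* and *TXNRD3* were under 1 CPM in every library.

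Of 14 genes with different roles in the metabolism, insertion or uptake of selenocysteine, 13 were tested, and *LRP2*, an uptake receptor of the kidney, was not. By limma-voom 0 passed FDR < 0.05, and edgeR's quasi-likelihood test called 0. At an unadjusted p under 0.05 by limma-voom 1 of the 13 was higher, against 12.6% of all genes, and 4 were lower, against 12.8%. DESeq2 called 2 lower, against 11.5% of all genes called in either direction. With the GC trend removed 1 lower was called, against 9.24%, and without CTCF-dRBR replicate 1 also 1 lower, against 3.90%. In 2 genes the CTCF-dRBR libraries were all higher, against 20.0% of all genes, and in 6 all lower, against 17.5%. The median log2 fold change of the 13 was −0.16. *NCL* (nucleolin, which binds SECIS elements among many other RNAs) had 792, 645 and 697 CPM in the CTCF-WT libraries, against 551, 448 and 474 CPM with CTCF-dRBR. Its groups did not overlap, with a log2 fold change of −0.54 (SE 0.123, limma-voom adjusted p = 0.116), and it passed without CTCF-dRBR replicate 1, at −0.63 (limma-voom adjusted p = 0.0426). On TPM with a pseudocount of 1, by limma-trend, it was at 0.25 beside 0.40 for the median gene. *EEFSEC*, the elongation factor, had 11, 12.5 and 9.91 CPM in the CTCF-WT libraries, against 4.95, 6.9 and 7.3 CPM with CTCF-dRBR. All CTCF-dRBR libraries were lower, with a log2 fold change of −0.80 (SE 0.194, limma-voom adjusted p = 0.127) that was −0.14 with the GC trend removed. *SARS*, which charges the tRNA with serine, was at −0.21 (limma-voom adjusted p = 0.186). *SECISBP2L* was highest, with 58.6, 65.7 and 70 CPM in the CTCF-WT libraries, against 128, 86.6 and 75.2 CPM with CTCF-dRBR. Its groups did not overlap, and CTCF-dRBR replicate 1 held the highest value (log2 fold change 0.53, SE 0.206, limma-voom adjusted p = 0.186). *SEPSECS* (0.20) and *PSTK* (0.25), which act in turn on the tRNA, did not pass. The receptor for SEPP1 that was expressed, *LRP8*, had 70.6 ± 0.516 CPM with CTCF-WT and 61.6 ± 4.91 CPM with CTCF-dRBR (SD, n = 3), a log2 fold change of −0.19 (limma-voom adjusted p = 0.233).

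A list of 31 genes without selenocysteine, called thiol antioxidant genes here, covered the thioredoxin, peroxiredoxin and glutathione systems. It also held genes outside these systems, such as *SOD1*, *CAT*, *NQO1*, *NFE2L2* and *KEAP1*, and 26 of the 31 were tested. By limma-voom 0 passed FDR < 0.05, and edgeR's quasi-likelihood test called 0. At an unadjusted p under 0.05 by limma-voom 1 of the 26 was higher, against 12.6% of all genes, and 8 were lower, against 12.8%. DESeq2 called 1 higher and 5 lower, against 11.5% of all genes in either direction. Without CTCF-dRBR replicate 1, 1 higher and 2 lower were called, against 3.90%. With the GC trend removed, 4 lower were called of the 24 genes with a GC value, against 9.24%. In 2 genes the CTCF-dRBR libraries were all higher, against 20.0% of all genes, and in 10 all lower, against 17.5%. The median log2 fold change of the 26 was −0.092, beside −0.0076 for all genes tested. *TXN2*, the mitochondrial thioredoxin that TXNRD2 reduces, had 26.8, 23.4 and 19.3 CPM in the CTCF-WT libraries, against 9.63, 9.61 and 11.2 CPM with CTCF-dRBR. No library of the groups overlapped, and the log2 fold change was −1.17 (SE 0.171, limma-voom adjusted p = 0.0959). It passed without CTCF-dRBR replicate 1, at −1.15 (limma-voom adjusted p = 0.0391), and with the GC trend removed, at −0.79 (limma-voom adjusted p = 0.0438). *SLC7A11*, the cystine importer that feeds glutathione synthesis, was at −0.55 (SE 0.125, limma-voom adjusted p = 0.116) and passed in the same 2 settings, at −0.63 and −0.91. *MSRA*, another methionine sulfoxide reductase, was at −0.53 (limma-voom adjusted p = 0.14). *TXNIP*, which binds and inhibits thioredoxin, was at 0.50 (SE 0.119, limma-voom adjusted p = 0.125) and passed without CTCF-dRBR replicate 1, at 0.58 (limma-voom adjusted p = 0.0424). *GLRX* was at 0.23 and *TXN*, the cytosolic thioredoxin, at 0.26. *TXN* had the opposite sign, −0.097, with the GC trend removed.

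**Figure D4:**
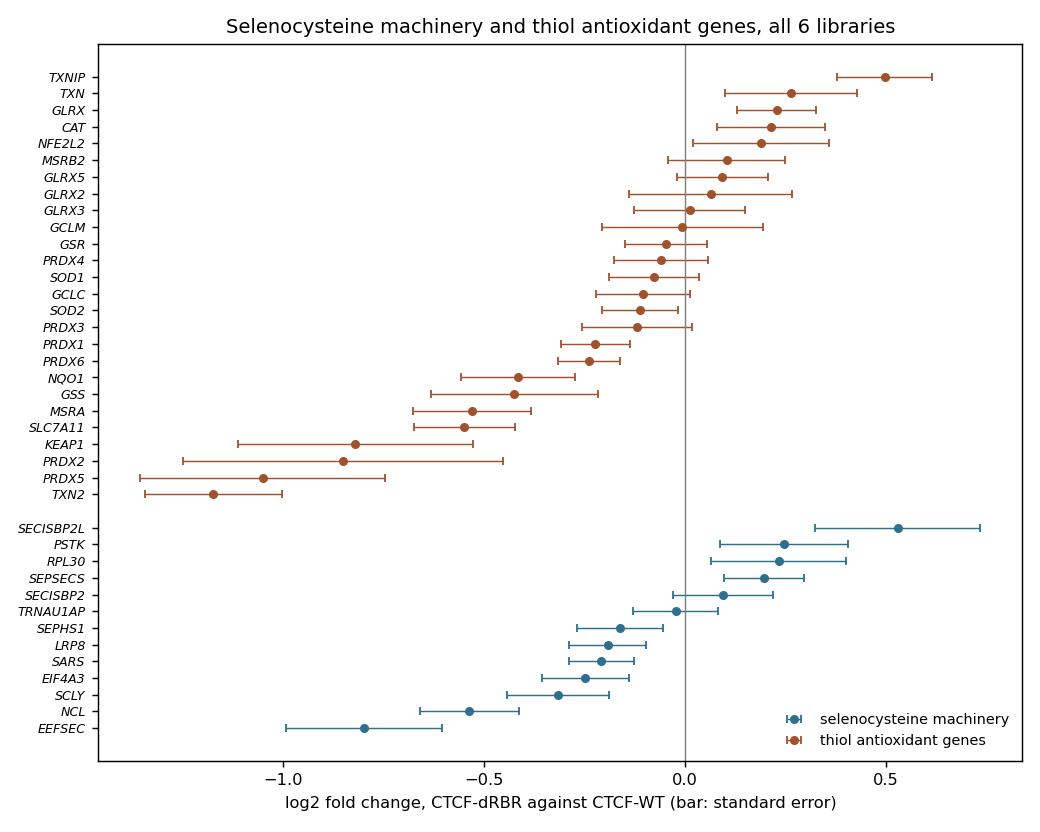
Log2 fold change of CTCF-dRBR against CTCF-WT by limma-voom on all 6 libraries (horizontal axis, with the standard error as a bar) for 13 genes of the selenocysteine machinery (blue) and 26 thiol antioxidant genes (brown), ordered by value in each list. Values ran from −0.80 for *EEFSEC* to 0.53 for *SECISBP2L* and from −1.17 for *TXN2* to 0.50 for *TXNIP*.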

How the data were processed

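Total RNA-seq of SEM cells was analyzed in 3 CTCF-WT and 3 CTCF-dRBR libraries. The authors prepared libraries with the Kapa RNA HyperPrep Kit with RiboErase, trimmed reads with Trim Galore (version 0.6.3), aligned them to hg19 with STAR (version 2.7.9a) and quantified Gencode genes with RSEM (version 1.3.1). The deposited expected counts are not normalized and not all whole. The deposited TPM were scaled by the authors to gene length and 1 total per library. The tables are named as stranded, while the use of strand in counting is not given in the sources used here, and the labels and methods differ on single-end or paired-end reads.

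The 10 genes and all lists were chosen with earlier results of these data known. Genes that never reached 1 CPM before TMM normalization were dropped. Counts were normalized by TMM (edgeR version 4.0.16), and the groups were fitted by limma-voom in R (version 4.3.3, limma version 3.58.1) with no covariate, two-sided, with Benjamini-Hochberg adjustment over all genes tested. CPM are TMM-normalized. Fits were also run on simulated counts in which some genes were changed 4-fold, more than the 2.88-fold of *SEPHS2*. These counts held no GC trend and no library set apart in expression as CTCF-dRBR replicate 1 was. They therefore cannot rank the methods on the measured counts. Limma-voom recovered 170 of 199 changed genes with 10 false calls, and edgeR's quasi-likelihood test recovered 172 with 9. DESeq2 recovered 189 of the 199 but made 81 false calls, so in this simulation its calls were less certain than those by limma-voom. VoomWithQualityWeights recovered 170 with 9 false calls there, yet called 9583 genes in the measured counts. With the GC trend removed, 165 of 193 were recovered with 10 false calls, in counts that held no such trend. Named were the 10 genes, every other selenoprotein tested, in the machinery and thiol lists the 3 genes with the smallest p in each direction, the tested *SEPP1* neighbours and the 5 genes most like *SEPP1*. *SEPHS1*, *LRP8* and *CCDC152* were named after their values were seen.

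Alternatives were edgeR's quasi-likelihood test and DESeq2 (version 1.42.0) on rounded counts, voomWithQualityWeights, limma-trend on TPM with a pseudocount of 1 or 0.1, 2 other normalizations and 2 other filters, the replicate block, leaving out each library, and removal of a loess trend over GC content (span 0.5) from each library's log2 CPM. Positions, GC content and sequences came from Gencode lifted to GRCh37 and from that genome, matched by identifier. Figures were drawn with matplotlib (version 3.10.9).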

Additional observations from a re-analysis of the deposited data

How the results depend on the processing

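Of the 19 alternatives, the one that both removed the GC trend and left out CTCF-dRBR replicate 1 was chosen after seeing the data. The cause of a change was not tested. *SEPHS2*, *SEPW1*, *MSRB1*, *C11orf31*, *SECISBP2L*, *PSTK*, *EEFSEC*, *TXNIP*, *GLRX*, *TXN2*, *SLC7A11* and *MSRA* kept their direction in every alternative run. *SEPP1* did too, but it was chosen by this direction in the same libraries.

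Genes past FDR < 0.05 numbered 1619 of 14031 with DESeq2 and 9583 of 14044 with voomWithQualityWeights. They numbered 833 and 760 of 14044 with limma-trend on TPM with a pseudocount of 1 and of 0.1. With the GC trend removed they numbered 1261 of 13654, and 3151 of 13360 with that and without CTCF-dRBR replicate 1. With 1 library left out they numbered 0 to 535, the latter of 13731 without CTCF-dRBR replicate 1. In the same order, the 10 selenoproteins gave 2, 8, 1, 1, 2 and 3 calls (0 to 2 with 1 library left out). *SEPP1*, chosen by this difference, is 1 of the calls wherever there are any. The 9 other members gave 1, 7, 0, 0, 1 and 2 (0 to 1 with 1 library left out). The other selenoproteins gave 1 with DESeq2, 6 with voomWithQualityWeights, 1 with the GC trend removed and 2 with that and without CTCF-dRBR replicate 1. The selenocysteine machinery gave 2, 10, 1, 1, 1 and 3 (0 to 1 with 1 library left out). The thiol genes gave 6 with DESeq2, 20 with voomWithQualityWeights, 4 with the GC trend removed, 10 with that and without CTCF-dRBR replicate 1, and 0 to 3 with 1 library left out. All these counts were 0 with edgeR's quasi-likelihood test, both normalizations and both filters, in which 3444 to 5392 of all genes had an unadjusted p under 0.05. Tested were 6 other selenoproteins, 13 machinery genes and 26 thiol genes, 24 of them where GC content was used. Since voomWithQualityWeights called most of all genes, its many calls in these lists are no result about the lists.

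The median of the 10 was 0.29 and 0.31 on TPM with these pseudocounts, beside 0.40 and 0.54 for all genes tested. It was −0.15 on TPM rescaled over protein-coding genes, −0.098 with the GC trend removed, −0.075 with that and without CTCF-dRBR replicate 1, and −0.68 to −0.18 with 1 library left out.

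The sign turned on TPM with a pseudocount of 1 and of 0.1 for *GPX4* (0.55 and 0.56), *TXNRD2* (0.31 and 0.35), *SELK* (0.27 and 0.28), *EPT1* (0.37 and 0.39), *VIMP* (0.60 and 0.64), *NCL* (0.25 and 0.25) and *SARS* (0.28 and 0.28), and on rescaled TPM for *GPX4* (0.092) and *VIMP* (0.17). It turned with the GC trend removed, and with that and without CTCF-dRBR replicate 1, for *GPX1* (0.063 and 0.10), *GPX4* (0.75 and 0.30), *TXNRD1* (−0.024 and −0.066), *SELT* (−0.16 and −0.085), *SELO* (0.062 and 0.084), *SEPSECS* (−0.13 and −0.028) and *TXN* (−0.097 and −0.092), with the former alone for *SEP15* (−0.087) and with the latter alone for *SEPN1* (0.19). *TXNRD1* was also at −0.0041 with voomWithQualityWeights, −0.040 with no filter, and at −0.021 (without CTCF-dRBR replicate 1) to 0.094 with 1 library left out, with −0.0019 without CTCF-WT replicate 1. *VIMP* was at 0.015 with upper quartile normalization and at −0.089 (without CTCF-dRBR replicate 1) to 0.058 (without CTCF-dRBR replicate 2) with 1 library left out.

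Samples of the same replicate number deviated together with correlations of −0.341, 0.0993 and −0.471 over 14044 genes, so the numbers were not taken as pairs. With the replicate block, 0 genes passed by limma-voom, with 1423 at an unadjusted p under 0.05, and the median of the 10 was −0.44.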
